A study of Solanum lycopersicum with 48 samples.

Results

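The 31 genes described here encode chlorophyll a/b binding proteins of both photosystems in tomato. They were taken as a fixed list of locus numbers, and 31 of 31 were found among the 29898 genes of the deposited expression table. The list was chosen with earlier results of these data known, so counts of members set beside those of all genes are descriptions. Neither the table nor the reference used here pairs these locus numbers with gene names, so each gene is called by its number and no antenna class is assigned to it. RNA was sequenced from roots and leaves of Guizhen No.1 and Guozhen No.1, a pair of cultivars called Guizhen and Guozhen below. The plants stood in hydroponic culture in a growth chamber, in full-strength Hoagland solution whose nitrogen was set to 9 mM (normal) or 1 mM (low), and were collected at day 1 and day 7. The 16 groups, formed by organ, cultivar, day and nitrogen, hold 3 libraries each, 48 in all. The labels leave out the event that starts the count of days, at which hour tissue was taken, and whether the 3 libraries of a group came from separate plants, so p-values measure only the spread between these samples, which may be technical.

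Chlorophyll a/b binding proteins are encoded in the nucleus, imported into the chloroplast and inserted into the thylakoid membrane. There they hold chlorophyll and carotenoids and form the antennae that gather light and pass its energy to the reaction centres of photosystem I and photosystem II. Their genes form a large plant family whose transcripts are abundant in green leaves, follow light and the daily cycle, and are tied to chloroplast development. Because chlorophyll and its proteins hold much of a leaf's nitrogen, the antenna is a common readout in studies of nitrogen supply.

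Many of the genes lie in groups of near neighbours, as read from the locus number, whose first digits name the chromosome. With neighbours defined as members within 100 locus numbers of each other, 18 genes fell into 5 runs. The longest run holds 8 genes on chromosome 2, from Solyc02g070940 to Solyc02g071030. A run of 4 genes lies on chromosome 3, from Solyc03g005760 to Solyc03g005790, and pairs lie on chromosomes 1, 5 and 8. The other 13 genes stand alone. Neighbouring copies of such a family can be near identical, and how the authors' counting divided shared reads between copies was not given in the sources used here, so levels of single genes within a run are uncertain.

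Levels are given in FPKM, a fragment count divided by gene length and by library size, so they can be compared between genes. The column sums lay between 577123 and 689680 FPKM, and the number of reads per library is unknown, so no counting error could be given. Among genes outside the list, 190 reached a mean of 50 FPKM in leaf and 50 times their root mean, and 183 did so in root over leaf. These leaf-preferred genes summed to between 34744 and 198302 FPKM in leaf libraries and to between 228 and 1153 FPKM in root libraries, so that every library matched its labelled organ, although both lists were chosen from these libraries. One leaf library stood apart in the root-preferred genes, which summed to 429 FPKM in Guozhen leaf at day 1, low nitrogen, replicate 1, against 53.2 to 144 FPKM in the other leaf libraries.

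In leaf, the family covered a wide range of levels. Averaged over the 24 leaf libraries, Solyc03g005760 had the highest mean with 4287 FPKM, followed by Solyc10g006230 with 3367 FPKM and Solyc06g063370 with 3319 FPKM. The lowest means were 8.39 FPKM for Solyc06g069000 and 8.82 FPKM for Solyc03g005790, which was listed at 0 in 7 leaf libraries. The order depended on the day and group. At day 7 of normal nitrogen Solyc06g063370, with means of 6279 FPKM in Guizhen and 5785 FPKM in Guozhen, stood above Solyc10g006230, with 5677 and 4865 FPKM. Solyc03g005790 had the lowest mean in all 4 groups of day 1 and in Guozhen at day 7 of normal nitrogen, and Solyc06g069000 in the other 3. Within runs the genes were far from equal, as the run on chromosome 3 held both the most abundant member and the second least abundant one.

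All 31 genes were higher in leaf than in root in limma at an adjusted p under 0.05, while 28.1% of the 22117 genes tested were higher and 59.3% lower. The contrast was the mean over the 8 leaf groups against the mean over the 8 root groups. Of these 31 genes, 9 never reached 1 FPKM in any root library. They entered the test only through leaf, the organ where they were high, so their calls cannot be read as support. The log2 differences ran from 1.98 ± 0.07 (SE) for Solyc03g005790 to 8.59 ± 0.37 for Solyc02g070940, and the median over members was 7.11, against -0.33 over all genes. Scaling by median-of-ratios factors moved these medians to 7.40 and -0.07, and the share of higher genes among all calls from 32.1% to 45.1%. In 30 of the 31 genes the lowest leaf library stood above the highest root library. The exception was Solyc03g005790, whose leaf values at day 1 were at or near 0. The share of all genes with such a gap was not computed, so the 30 only describes the members. In bulk tissue, fewer cells of a type and less RNA per cell cannot be told apart.

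The ratio of the leaf mean to the root mean differed widely between members. It was smallest for Solyc07g022900, with 136 FPKM in leaf and 10.01 FPKM in root, a ratio of 13.6. It was largest for Solyc12g006140, with 792 FPKM in leaf and 0.0920 FPKM in root, a ratio of 8604. Solyc07g022900 ranked at position 28 in leaf but at position 5 in root. The order of the members in root followed that in leaf only in part, with a Spearman correlation of the mean levels of 0.678 over 31 genes, given as a description.

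Within an organ, the largest median change of the family was between the days in leaf. At normal nitrogen, the summed level of the 31 genes in Guizhen leaf was 13319, 14694 and 12756 FPKM in the 3 libraries of day 1, and 77613, 73715 and 75505 FPKM in those of day 7. In Guozhen leaf the sums were 10413, 5892 and 9548 FPKM at day 1 and 64412, 75746 and 71230 FPKM at day 7. No day 1 library came near a day 7 library in either cultivar. As a share of the column sum, the family held 2.23% ± 0.14 (SD, n = 3) in Guizhen and 1.39% ± 0.38 in Guozhen at day 1, and 11.0% ± 0.31 and 10.6% ± 1.01 at day 7. The leaf-preferred genes outside the list summed to 64410 FPKM on average in Guizhen at day 1 and to 187706 FPKM at day 7, and in Guozhen to 59329 and 181109 FPKM; their part in the result was not tested.

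**Figure D1:**
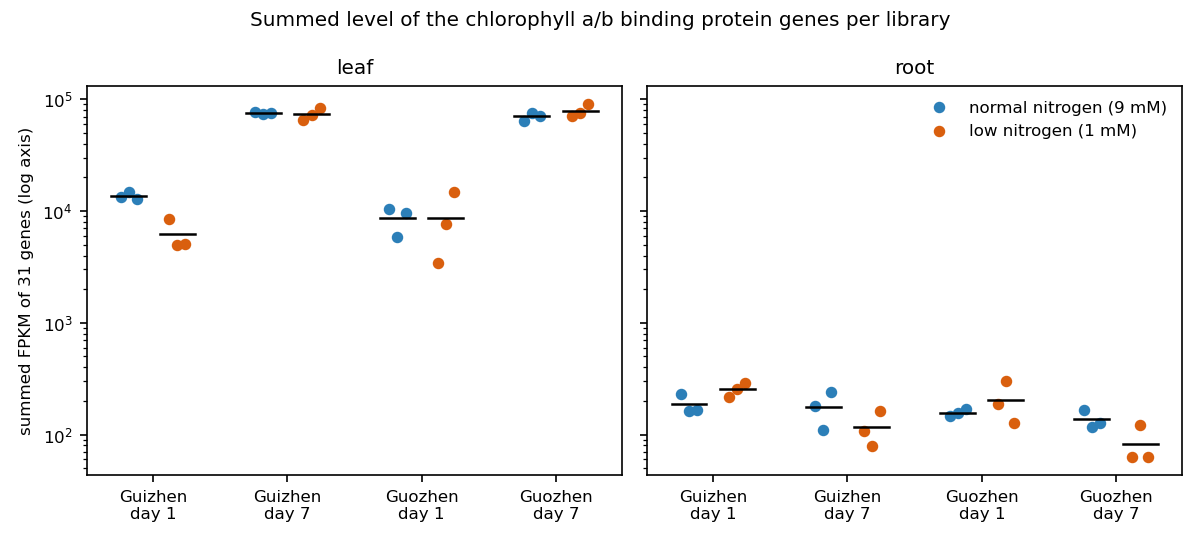
Summed FPKM of the 31 genes in each library, on a log axis, in leaf (left) and root (right), by cultivar and day. Blue points are normal nitrogen (9 mM), orange points low nitrogen (1 mM), and bars are group means of 3 libraries. Leaf sums lie between 3409 and 14827 FPKM at day 1 and between 64412 and 91277 FPKM at day 7, and root sums between 62.7 and 300.6 FPKM.

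Single genes moved in the same direction. At normal nitrogen 31 of 31 genes were called higher at day 7 than at day 1 in Guizhen and 31 of 31 in Guozhen, while 17.4% and 13.6% of all 19815 genes tested in leaf were called higher. In both cultivars the 3 libraries of day 7 lay above those of day 1 in all 31 genes, as they did in 19.7% of all genes in Guizhen and 17.4% in Guozhen. Solyc03g005790 passed the filter on low values only through its day 7 libraries, so the count that can be read is that of the other 30. The median log2 change of the members was 2.68 in Guizhen and 3.13 in Guozhen, against -0.29 and -0.40 over all genes. After median-of-ratios scaling the member medians were 3.02 and 3.59 and those of all genes -0.02 and -0.03, and the share of higher genes among all calls moved from 29.1% to 47.7% (Guizhen) and from 22.0% to 46.8% (Guozhen). The count stayed at 31 under each alternative setting and without each library in turn. The same lack of overlap between days held in all 31 genes, Solyc03g005790 included, at low nitrogen in both cultivars. The share of all genes was not computed at low nitrogen, so that count only describes the members.

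At normal nitrogen the most abundant gene had the smallest ratio between the days in Guizhen, whereas at low nitrogen Solyc07g022900 did, at 3.99-fold against 5.88-fold. Solyc03g005760 had 2697, 2404 and 2805 FPKM in Guizhen leaf at day 1 and 6180, 6411 and 7720 FPKM at day 7, a log2 change of 1.36 ± 0.37 (SE, with an adjusted p of 0.003858 in limma). In Guozhen it had 2176, 1272 and 1898 FPKM at day 1 and 6281, 7188 and 6940 FPKM at day 7, a log2 change of 1.97 ± 0.37 (adjusted p = 0.000147). It held the highest level on both days. Solyc10g006230 went from 1072, 1363 and 1228 FPKM to 5904, 5822 and 5304 FPKM in Guizhen, a log2 change of 2.22 ± 0.36 (adjusted p = 3.576e-05). Solyc06g063370 went from 928, 1260 and 1030 FPKM to 6285, 6309 and 6243 FPKM in Guizhen, a log2 change of 2.56 ± 0.40 (adjusted p = 2.384e-05). In Guozhen the log2 changes were 2.78 ± 0.36 for Solyc10g006230 and 3.13 ± 0.40 for Solyc06g063370.

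Leaving out Solyc03g005790, the steepest rises at normal nitrogen in both cultivars were those of Solyc02g070990 and Solyc02g070980, in the middle of the chromosome 2 run. Solyc02g070990 had 11.2, 32.3 and 14.7 FPKM in Guizhen leaf at day 1 and 1512, 1206 and 1220 FPKM at day 7, a 67.8-fold ratio of the means and a log2 change of 6.14 ± 0.56 (limma adjusted p = 3.569e-08). In Guozhen it had 11.5, 2.75 and 10.5 FPKM at day 1 and 1269, 1735 and 1297 FPKM at day 7, a 174-fold ratio. Every day 7 library was thus more than an order of magnitude above every day 1 library. Its neighbour Solyc02g070980 rose 50.01-fold in Guizhen and 128-fold in Guozhen, and Solyc02g071000 rose 22.0-fold and 76.6-fold. Solyc02g070970 rose 18.4-fold and 56.2-fold. At the outer ends of the same run the ratios were smaller, with 5.02-fold and 7.93-fold for Solyc02g070940 and 4.09-fold and 6.84-fold for Solyc02g071030. Between them, Solyc02g070950 rose 10.02-fold and 21.7-fold and Solyc02g071010 14.3-fold and 18.5-fold.

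The genes of the chromosome 3 run also differed in their ratios. Solyc03g005760 rose 2.57-fold in Guizhen and 3.82-fold in Guozhen and Solyc03g005770 3.75-fold and 6.17-fold, while Solyc03g005780 rose 10.03-fold and 21.4-fold. Solyc03g005790 was listed at 0, 0.265 and 0.163 FPKM in Guizhen at day 1 and reached 21.4, 19.4 and 16.6 FPKM at day 7. No fold is given for it, since its day 1 level rests on values at or near 0. The paired genes differed less, with 6.86-fold and 5.65-fold for Solyc01g105030 and Solyc01g105050 in Guizhen, 6.43-fold and 3.78-fold for Solyc05g056050 and Solyc05g056070, and 5.02-fold and 5.73-fold for Solyc08g067320 and Solyc08g067330.

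Among the genes that stand alone, Solyc12g006140 rose most at normal nitrogen. In Guizhen at low nitrogen it had the largest ratio of the family without Solyc03g005790, at 103-fold against 54.9-fold for Solyc02g070990. It had 54.3, 66.5 and 26.6 FPKM in Guizhen leaf at day 1 and 1649, 1846 and 1480 FPKM at day 7, a 33.8-fold ratio and a log2 change of 5.14 ± 0.46 (limma adjusted p = 2.855e-08). In Guozhen its libraries went from 19.4, 9.05 and 19.5 FPKM to 1242, 1783 and 1719 FPKM, a 99.1-fold ratio. Solyc06g069730 followed with 27.8-fold and 45.03-fold, then Solyc12g011280 with 13.1-fold and 18.8-fold. Solyc07g063600 rose 8.71-fold and 14.4-fold, Solyc12g011450 7.00-fold and 9.85-fold, and Solyc07g047850 6.41-fold and 10.02-fold. The ratios of Solyc03g115900, Solyc09g014520 and Solyc10g007690 were 5.33-fold, 5.33-fold and 4.68-fold in Guizhen and 7.78-fold, 6.25-fold and 5.86-fold in Guozhen. Solyc06g069000 rose 4.94-fold and 4.16-fold, and Solyc07g022900 had the smallest ratios of these genes, at 3.46-fold and 3.02-fold.

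**Figure D2:**
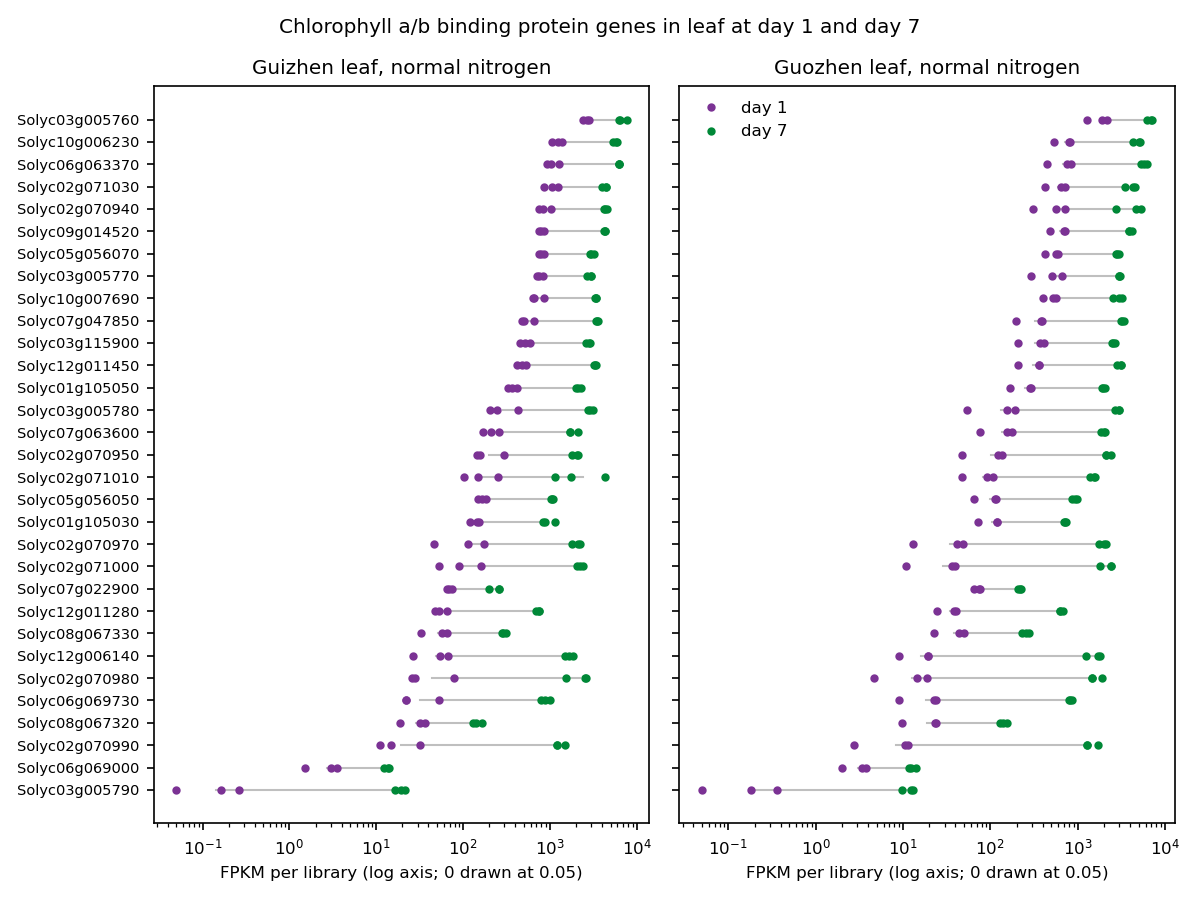
FPKM of each of the 31 genes in leaf at normal nitrogen, on a log axis, with 1 point per library at day 1 (purple) and day 7 (green) and a grey line between the group means; values of 0 are drawn at 0.05. In every gene and both cultivars the day 7 points lie to the right of the day 1 points, and the gap differs between genes. The ratios of the means given here leave out Solyc03g005790, whose day 1 level is at or near 0. The smallest is 2.57-fold in Guizhen (Solyc03g005760) and 3.02-fold in Guozhen (Solyc07g022900). The largest is 67.8-fold in Guizhen and 174-fold in Guozhen, both for Solyc02g070990.

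The rise evened out the family. At day 1 the 3 most abundant members held 36.3% of the family's summed level in Guizhen and 37.0% in Guozhen, and at day 7 they held 24.8% in both. The highest member stood 13.3 times above the median member in Guizhen and 17.2 times in Guozhen at day 1, and 3.05 and 3.43 times at day 7. The chromosome 2 run grew from 18.8% to 27.6% of the family's level for Guizhen and from 16.2% to 27.4% in Guozhen, while the chromosome 3 run went from 27.2% to 16.7% and from 27.9% to 18.0%. Of the 50 genes with the highest group mean, members made up 5 in Guizhen and 1 in Guozhen at day 1, and 20 in each at day 7. The number of members with a group mean of at least 1000 FPKM went from 4 to 23 (Guizhen) and from 1 to 22 (Guozhen). The order of the members was largely kept, with Spearman correlations between the days of 0.912 in Guizhen and 0.871 in Guozhen over 31 genes. The ratios between the days were ranked alike in the cultivars, with a Spearman correlation of 0.944, given with no test.

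Low nitrogen at day 1 in Guizhen leaf went with a lower mean in 30 of the 31 genes, but none was called. The summed level was 13319, 14694 and 12756 FPKM at normal nitrogen and 8559, 5000 and 5046 FPKM at low nitrogen, so the groups did not overlap, and the ratio of the means was 0.456 ± 0.154 (SD from the spread of both groups). In 18 of 31 genes every low nitrogen library lay below every normal nitrogen library, as it did in 10.5% of all genes. The median log2 difference of the members was -1.14, against 0.01 over all genes. In limma 0 of 31 were called at an adjusted p under 0.05, as 0.116% of all genes were in either direction, and 23 of 31 had an unadjusted p under 0.05. The share of all genes at that unadjusted cut was not computed, so the 23 is a description and not a call. The smallest adjusted p among the members was 0.1107.

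The 3 most abundant members were among the 18. Solyc03g005760 had 2697, 2404 and 2805 FPKM at normal nitrogen and 1440, 980 and 1050 FPKM at low nitrogen, with no overlap. Its log2 difference was -1.21 ± 0.37 (SE, with an adjusted p of 0.1566 in limma). Solyc10g006230 had 834, 435 and 464 FPKM at low nitrogen, a log2 difference of -1.14 ± 0.36 (adjusted p = 0.1705), and Solyc06g063370 had 775, 399 and 381 FPKM, a log2 difference of -1.12 ± 0.40 (adjusted p = 0.2190). The libraries of both genes lay below their normal nitrogen values. The largest difference was in Solyc12g006140, at 54.3, 66.5 and 26.6 FPKM against 23.1, 9.70 and 9.56 FPKM, a log2 difference of -1.75 ± 0.46 (adjusted p = 0.1107). In the chromosome 2 run the differences were uneven. The end genes Solyc02g070940 and Solyc02g071030 had log2 differences of -1.60 ± 0.51 and -1.47 ± 0.42, whereas Solyc02g070980 and Solyc02g070990 had -0.20 ± 0.54 and -0.12 ± 0.56. Solyc02g071010 was the gene with a higher mean, at 177 against 168 FPKM.

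The low nitrogen libraries themselves were unequal. Replicate 1 was the highest of the 3 in 30 of 31 members, the exception being Solyc03g005790, which was listed at 0 in all 3. Without replicate 1, Solyc12g006140 was called lower while the other 30 were not. Without each of the 6 libraries in turn the ratio of the summed levels lay between 0.370 and 0.5005. The leaf-preferred genes outside the list were also lower in these libraries, with sums of 45518 to 49161 FPKM at low nitrogen and 57381 to 69699 FPKM at normal nitrogen, and a lower mean in 167 of 190. Their part in the members' difference was not tested.

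In Guozhen leaf at day 1 the libraries did not separate by nitrogen level. The summed level was 10413, 5892 and 9548 FPKM at normal nitrogen and 3409, 7665 and 14827 FPKM at low nitrogen, so that the lowest and the highest library both came from low nitrogen. The ratio of the means was 1.00 ± 0.73 (SD). The log2 difference was above 0 in 6 of 31 members, with a median of -0.13, against -0.03 over all genes. By FPKM means, low nitrogen was higher in 19 of 31 and lower in 12, so the direction depended on the scale. The 3 low nitrogen libraries stood in the same order in 30 of the 31 genes. For Solyc03g005760 they gave 727, 1602 and 2925 FPKM, against 2176, 1272 and 1898 FPKM at normal nitrogen, a log2 difference whose 95% interval ran on both sides of 0. In limma 0 of 31 members were called, and 0.0606% of all genes were, with 1 member at an unadjusted p under 0.05. Solyc07g022900 was lower without overlap, at 76.6, 64.5 and 75.1 FPKM against 28.7, 53.6 and 55.2 FPKM, as 8.26% of all genes were. The outcome rested on single libraries, since the ratio of the summed levels was 0.643 when replicate 3 of low nitrogen was left out and 1.31 when its replicate 1 was, and Solyc07g022900 was called lower without replicate 3. Replicate 1, the lowest in the members, is the library with the raised sum of root-preferred genes, and its leaf-preferred genes summed to 34744 FPKM against 46512 and 63135 FPKM in replicates 2 and 3. Over the groups the leaf-preferred genes had a lower mean at low nitrogen in 167 of 190, with a ratio of their sums of 0.811, while the members' ratio was 1.00; their part was not tested.

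The response of the cultivars at day 1 was compared directly. The log2 difference between the Guozhen and the Guizhen response was above 0 in 29 of 31 genes with a median of 0.96, against -0.03 over all genes. None of the 31 was called, as 0.0858% of all genes were, and 5 had an unadjusted p under 0.05. For Solyc03g005760 the difference was 1.00 ± 0.52 (SE), with a 95% interval from -0.10 to 2.09, which spans both no difference and one larger than the Guizhen response itself.

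**Figure D3:**
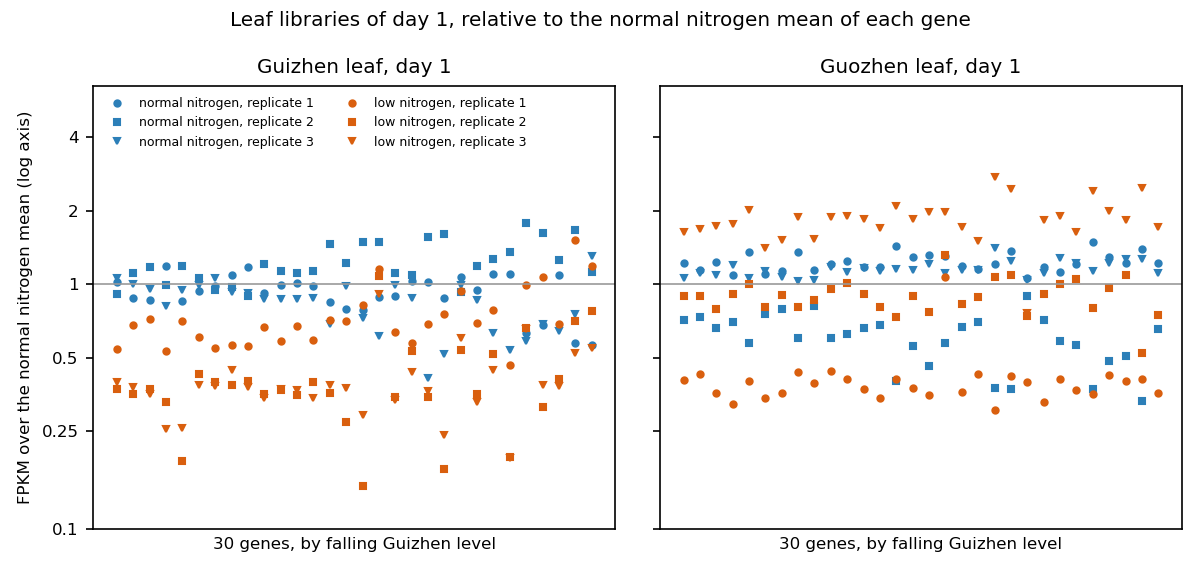
FPKM of each gene in each leaf library of day 1, divided by the gene's mean at normal nitrogen in the same cultivar, on a log axis, for 30 genes ordered by falling level (Solyc03g005790 is left out because of values of 0). Blue is normal and orange low nitrogen, and the marker shape gives the replicate. In Guizhen most low nitrogen points lie below 1 with replicate 1 on top. In Guozhen the low nitrogen replicates 1, 2 and 3 form separate bands with replicate 3 on top in each of the 30 genes.

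At day 7 in leaf the summed levels of the nitrogen groups overlapped. In Guizhen the summed level was 77613, 73715 and 75505 FPKM at normal and 65786, 71653 and 82687 FPKM at low nitrogen, with a ratio of the means of 0.970 ± 0.116 (SD). In Guozhen it was 64412, 75746 and 71230 FPKM at normal and 70837, 74934 and 91277 FPKM at low nitrogen, with a ratio of 1.12 ± 0.18. None of the 31 genes was called in Guizhen, where 16.6% of all genes were called and no member had an unadjusted p under 0.05. In Guozhen 1 of 31 was called higher, against 12.3% of all genes, and 0 lower, against 5.47%.

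The Guizhen log2 differences at day 7 lay between -0.53 for Solyc02g070990 and 0.47 for Solyc02g071010. The libraries did not overlap in 4 genes that were higher, as in 29.1% of all genes, and in 3 that were lower, as in 10.7%. In Guozhen 11 genes were higher without overlap, as 25.3% of all genes were, and 2 lower, as 7.84% were. The median member change was -0.10 in Guizhen and 0.18 in Guozhen, against 0.16 and 0.14 over all genes. After median-of-ratios scaling the member medians were -0.27 and 0.02 and those of all genes 0.03 and 0.02, and the share of higher genes among all calls fell from 70.4% to 38.4% (Guizhen) and from 69.2% to 40.1% (Guozhen). For Solyc03g005760 the Guizhen change was 0.00 ± 0.37, with a 95% interval from -0.77 to 0.78. The interval thus holds no change as well as changes in either direction.

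The gene called in Guozhen at day 7 was Solyc03g005790, the least abundant of the chromosome 3 run. Its libraries held 9.66, 12.2 and 12.97 FPKM at normal and 20.9, 21.6 and 25.7 FPKM at low nitrogen, a log2 change of 0.91 ± 0.24 (SE, with an adjusted p of 0.01405 in limma). All low nitrogen libraries lay above all normal nitrogen ones. The call was lost with a pseudocount of 0.1 (adjusted p = 0.2276), without normal nitrogen replicate 1 (0.05427) and without low nitrogen replicate 3 (0.05889). In Guizhen the same gene had 21.4, 19.4 and 16.6 FPKM at normal and 8.31, 19.5 and 22.4 FPKM at low nitrogen, with overlapping libraries. The difference between the cultivars' responses at day 7 was called in none of the 31 members and in 0% of all genes, and 1 member had an unadjusted p under 0.05.

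The response to nitrogen was also compared between the days. In Guizhen leaf the day 7 response exceeded the day 1 response in 28 of 31 genes, with a median log2 difference of 1.11 against 0.14 over all genes (0.93 and -0.01 after scaling). None was called, as 1.59% of all genes were, and 11 had an unadjusted p under 0.05. In Guozhen leaf 25 of 31 were above 0 with a median of 0.34 against 0.17 over all genes (0.13 and 0.00 after scaling), 0 were called, as 4.84% of all genes were, and 1 had an unadjusted p under 0.05. Among all genes called, the share of higher ones moved from 82.9% to 49.0% (Guizhen) and from 74.9% to 34.9% (Guozhen) after scaling.

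**Figure D4:**
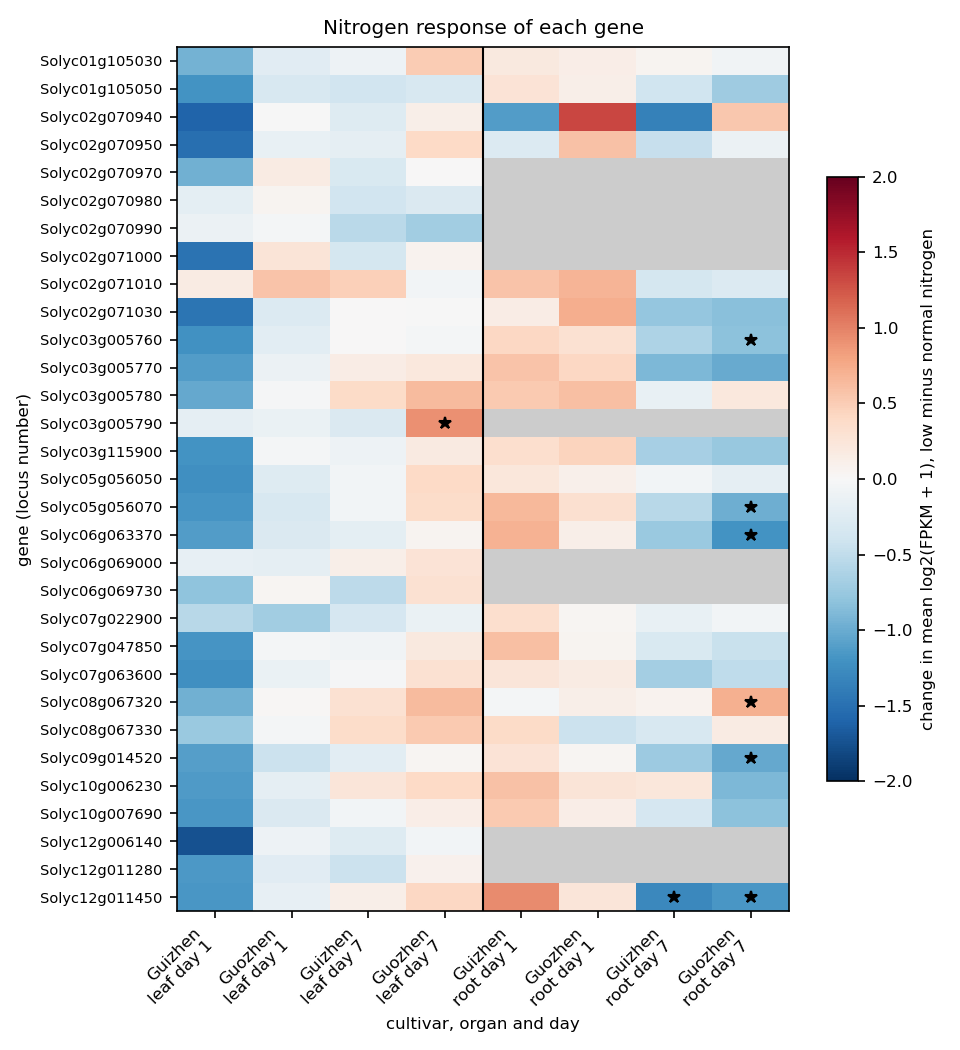
Change of each of the 31 genes under low nitrogen, as the difference of mean log2(FPKM + 1), low minus normal nitrogen, for the 8 responses. Blue is lower and red higher, stars mark genes called in limma at an adjusted p under 0.05, and grey marks the 9 genes not tested in root. The Guizhen leaf day 1 column is blue in 30 of 31 genes without a star, and 1 star lies in leaf against 7 in root at day 7.

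Between the cultivars at normal nitrogen, no member was called in leaf at either day, although most means at day 1 were lower in Guozhen. At day 1 the mean was lower in Guozhen for 28 of 31 genes, and in 21 genes all Guozhen libraries lay below all Guizhen ones, as in 9.29% of all genes. The median log2 difference was -0.71 for the members and 0.08 for all genes (-0.82 and -0.01 after scaling, which moved the share of higher genes among all calls from 65.5% to 47.4%). In limma 0 of 31 were called, as 2.92% of all genes were, and 10 had an unadjusted p under 0.05. The largest differences were those of Solyc02g071000 at -1.82 ± 0.59 (SE, adjusted p = 0.1014), Solyc02g070980 at -1.73 ± 0.54 (adjusted p = 0.08942) and Solyc02g070970 at -1.65 ± 0.61 (adjusted p = 0.1571), in the middle of the chromosome 2 run. Solyc12g006140, with 54.3, 66.5 and 26.6 FPKM in Guizhen and 19.4, 9.05 and 19.5 FPKM in Guozhen, differed by -1.54 ± 0.46 (adjusted p = 0.07555) and was called without Guizhen replicate 3. Solyc07g022900 did not follow, with 74.8, 65.1 and 69.4 FPKM in Guizhen and 76.6, 64.5 and 75.1 FPKM in Guozhen. At day 7 none was called, as 0.691% of all genes were, 11 were lower in Guozhen without overlap, as 7.45% of all genes were, and 1 was higher, as 6.29% were. The day 7 differences lay between -0.68 for Solyc03g005790, the 1 gene with an unadjusted p under 0.05, and 0.17 for Solyc02g070950.

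The members varied together between leaf libraries of a group, but not to the same degree in every group. Over 24 leaf libraries, the median Pearson correlation of the deviations from the group means was 0.856 over the 465 pairs of genes, and 460 pairs were above 0. In Guozhen leaf at day 1, low nitrogen, 30 of 31 members ordered the 3 libraries as the summed level did. In Guizhen leaf at day 7, normal nitrogen, 6 of 31 did. The genes share library and scaling, and pairs of other genes were not examined, so this is a description.

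In root the family was present at low levels. Of the 31 genes, 22 reached 1 FPKM in at least 3 of the 24 root libraries. The other 9 never reached it, and were Solyc02g070970, Solyc02g070980, Solyc02g070990, Solyc02g071000, Solyc03g005790, Solyc06g069000, Solyc06g069730, Solyc12g006140 and Solyc12g011280. In leaf at day 7 of normal nitrogen 7 of these, all but Solyc03g005790 and Solyc06g069000, had means from 645 to 2236 FPKM. The most abundant members in root were the same 3 as in leaf, Solyc03g005760 with a mean of 34.5 FPKM, Solyc10g006230 with 18.0 FPKM and Solyc06g063370 with 14.8 FPKM. Solyc02g070940 was irregular in root, with 3.02 to 19.6 FPKM in 12 libraries and 0.0633 to 0.289 FPKM in the other 12, often within the same group. Its 3 libraries in Guizhen root at day 1, normal nitrogen, held 19.6, 0.119 and 10.7 FPKM. It is an end gene of the run of 8 neighbours, and the division of reads between copies was not tested.

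At day 1 in root no member was called for nitrogen in either cultivar, as 0.00979% of all genes were in Guizhen and 0.0391% in Guozhen, with 2 and 1 members at an unadjusted p under 0.05. The log2 difference was above 0 in 19 of 22 members in Guizhen, with a median of 0.35, and in 21 of 22 in Guozhen, with a median of 0.21, against -0.01 and 0.01 over all genes. The leaf-preferred genes had a higher mean at low nitrogen in 137 and 138 of 190, and their part was not tested. The summed level in Guizhen was 230.7, 161.9 and 166.3 FPKM at normal and 217.2, 254.9 and 291.1 FPKM at low nitrogen, which overlapped. In Guozhen it was 145.4, 156.4 and 168.6 FPKM at normal and 186.3, 300.6 and 125.9 FPKM at low nitrogen, with the highest and the lowest library both at low nitrogen. In Guizhen 6 of the 22 tested genes were higher without overlap, as 6.38% of all genes were. In Guozhen 1 gene, Solyc08g067330, was lower without overlap, as 4% of all genes were. It held 1.41, 0.735 and 0.755 FPKM at normal and 0.612, 0.443 and 0.285 FPKM at low nitrogen. The difference between the cultivars' responses was called in 0 of 22 members, as in 0.0734% of all genes, with 2 at an unadjusted p under 0.05.

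At day 7 in root, 5 of 22 members fell and 1, which entered the test through its low nitrogen libraries, was called higher under low nitrogen in Guozhen, against 14.8% of all 20435 genes that were called lower and 12.8% called higher. In all, 6 of 22 members and 27.6% of all genes were called, so the members' share is near that of all genes. The summed level was 164.8, 117.4 and 128.0 FPKM at normal and 62.7, 122.0 and 63.2 FPKM at low nitrogen, so that low nitrogen replicate 2 overlapped the normal nitrogen libraries. The median member change was -0.61 on the log2 scale, against -0.03 over all genes. In 9 genes every low nitrogen library lay below every normal nitrogen library, as in 21.6% of all genes, and in 1 gene above, as in 18.6%.

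Solyc06g063370 had 12.2, 11.5 and 13.3 FPKM at normal and 3.33, 9.13 and 3.43 FPKM at low nitrogen in Guozhen root at day 7, a log2 change of -1.20 ± 0.34 (SE, with an adjusted p of 0.01287 in limma). Solyc03g005760 had 42.8, 31.1 and 39.1 FPKM at normal and 17.5, 27.5 and 18.5 FPKM at low nitrogen, a log2 change of -0.82 ± 0.30 (adjusted p = 0.04986). In both genes replicate 2 of low nitrogen was the highest of its group and still below the normal nitrogen libraries. Solyc09g014520 had 10.5, 7.24 and 7.49 FPKM against 2.78, 5.33 and 2.98 FPKM, a log2 change of -1.03 ± 0.33 (adjusted p = 0.02751). Solyc05g056070 had 8.93, 4.19 and 6.46 FPKM against 2.09, 3.59 and 2.61 FPKM, a log2 change of -0.97 ± 0.31 (adjusted p = 0.02392). These fell without overlap as well. Solyc12g011450 had 2.81, 2.81 and 2.21 FPKM against 0.545, 1.12 and 0.263 FPKM, a log2 change of -1.17 ± 0.32 (adjusted p = 0.01093). The gene called higher, Solyc08g067320, had 0.306, 0.164 and 0.123 FPKM at normal and 1.12, 1.13 and 0.686 FPKM at low nitrogen, a log2 change of 0.72 ± 0.24 (adjusted p = 0.03025). It reached 1 FPKM in 3 root libraries, 2 of which are in the low nitrogen group of this comparison, so it entered the test largely through the group where it was high and its call cannot be read as support. The call was lost with a pseudocount of 0.1 (adjusted p = 0.0625), and in 2 of the 4 fits without 1 library in which the gene was kept.

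The number of members called in Guozhen root at day 7 depended on single libraries. Without each of the 6 compared libraries in turn, the call held in 4 fits for Solyc06g063370 and in 1 for Solyc03g005760. It held in 2 fits each for Solyc05g056070 and Solyc09g014520. Leaving out replicates 1, 2 and 3 of low nitrogen in turn gave 1, 8 and 2 called members, and leaving out those of normal nitrogen gave 3, 4 and 2, and Solyc12g011450 was called in each case. The share of all genes called in each of these fits is not given here, so the counts only describe how stable the calls were. The leaf-preferred genes outside the list moved with the members, with sums of 388 to 448 FPKM at normal and 228 to 361 FPKM at low nitrogen and a lower mean in 129 of 190, and their part was not tested.

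In Guizhen root at day 7, 1 of 22 members was called lower, Solyc12g011450, against 3.49% of all genes, and 0 higher, against 4.43%. It had 3.43, 5.36 and 4.85 FPKM at normal and 0.471, 0.739 and 3.44 FPKM at low nitrogen, a log2 change of -1.29 ± 0.32 (SE, with an adjusted p of 0.01829 in limma). Low nitrogen replicate 3 overlapped the normal nitrogen libraries. The gene that was lower without overlap was Solyc08g067330, which was not called, as 12.7% of all genes were without overlap. Its libraries held 0.783, 0.648 and 0.569 FPKM at normal and 0.215, 0.373 and 0.415 FPKM at low nitrogen, all below 1 FPKM. Without low nitrogen replicate 3, 4 members were called lower, Solyc03g005760, Solyc03g005770, Solyc07g063600 and Solyc12g011450, and the share of all genes called in that fit is not given here. None was called in the fits that left out replicate 2 or 3 of normal nitrogen, or replicate 1 or 2 of low nitrogen. The summed level was 178.5, 109.7 and 238.2 FPKM at normal and 107.5, 79.3 and 161.5 FPKM at low nitrogen, and the leaf-preferred genes summed to 471 to 615 FPKM and 310 to 475 FPKM, a lower mean in 139 of 190; their part was not tested. The difference between the cultivars' responses at day 7 was called in 0 of 22 members, as in 0.387% of all genes, and no member had an unadjusted p under 0.05.

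**Figure D5:**
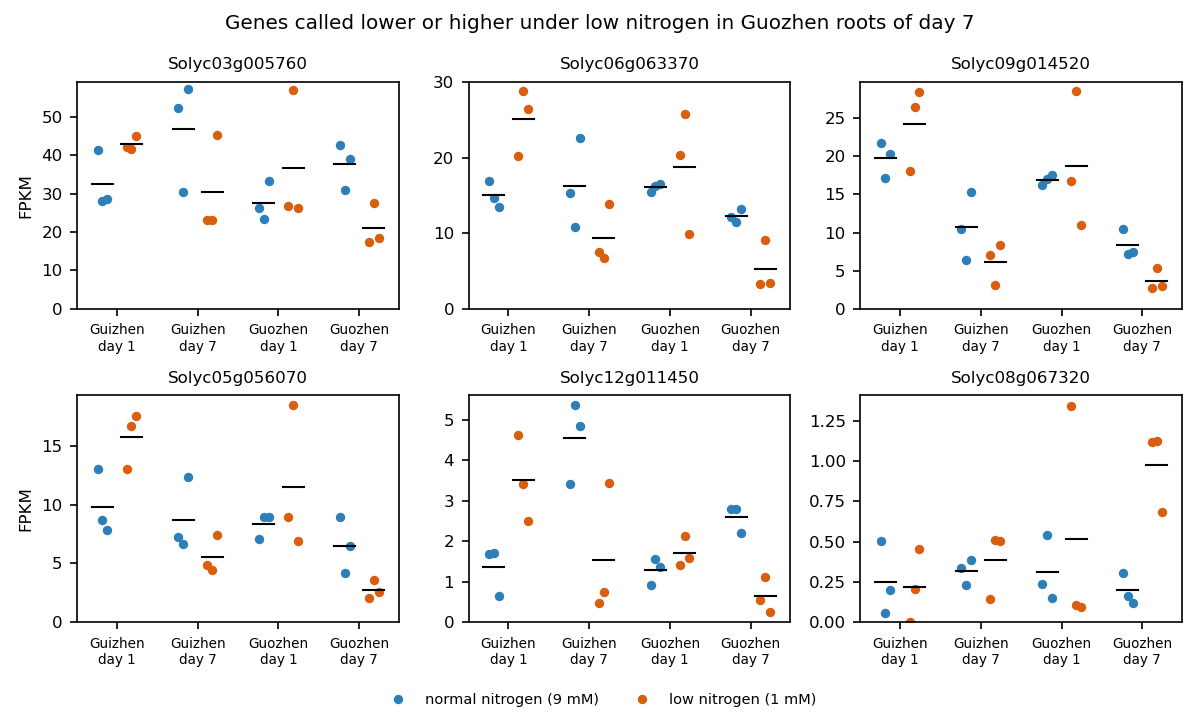
FPKM in each root library of the 6 genes called under low nitrogen in Guozhen root at day 7, by cultivar and day, with blue for normal and orange for low nitrogen and bars for the means of 3 libraries. Each panel has its own linear axis from 0. In the Guozhen day 7 columns the orange points lie below the blue ones in 5 panels and above them in that of Solyc08g067320, and low nitrogen replicate 2 is the highest of its group in each of the 5.

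Solyc12g011450 was the member whose root response to nitrogen was called as different between the days in each cultivar, though neither call held under all alternatives. At day 1 its libraries in Guizhen held 1.70, 1.71 and 0.657 FPKM at normal and 4.64, 3.41 and 2.51 FPKM at low nitrogen, with all low nitrogen libraries higher, the reverse of the order of the means at day 7. The day 7 response minus the day 1 response was -2.24 ± 0.45 (SE, with an adjusted p of 0.02588 in limma), while 0.338% of all genes were called in this direction. In Guozhen the day 1 libraries held 0.924, 1.58 and 1.36 FPKM at normal and 1.41, 2.14 and 1.60 FPKM at low nitrogen, which overlapped. There the difference was -1.41 ± 0.45 (adjusted p = 0.04381), with 7% of all genes called in this direction. The Guizhen call was lost with only the compared libraries (adjusted p = 0.1415) and in 6 of 12 fits that each left out 1 library. The Guozhen call was lost with no filter on low values (0.06794) and in 10 of 12 such fits. Over the 22 tested members the median difference was -0.88 in Guizhen and -0.89 in Guozhen, against 0.02 and -0.04 over all genes, and 9 members in each had an unadjusted p under 0.05. In leaf the same gene rose 7.00-fold and 9.85-fold between the days at normal nitrogen, to means of 3318 and 3062 FPKM, far above its root level.

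Between the days at normal nitrogen, more members fell than rose in root, at shares below those of all genes. In Guizhen 4 of 22 fell, Solyc02g070950, Solyc07g047850, Solyc09g014520 and Solyc10g006230, against 24.3% of all genes, and 1 rose, Solyc12g011450, against 21.4%. In Guozhen 4 fell, Solyc07g022900, Solyc07g047850, Solyc09g014520 and Solyc10g006230, against 25.9%, and 0 rose, against 22.7%. Solyc10g006230 had 24.7, 21.4 and 19.4 FPKM at day 1 and 9.15, 5.12 and 15.0 FPKM at day 7 in Guizhen, a log2 change of -1.19 ± 0.38 (SE, with an adjusted p of 0.01646 in limma), and in Guozhen the change was -0.94 ± 0.38 (adjusted p = 0.04903). The days did not overlap in either cultivar. The Guozhen call of Solyc10g006230 was lost without each of the 6 compared libraries in turn, and those of Solyc07g022900 and Solyc09g014520 each held in 2 of these 6 fits. The Guozhen count was 0 to 3 in such fits and 7 with only the compared libraries, and the shares of all genes called there are not given here. Solyc12g011450 in Guizhen went from 1.70, 1.71 and 0.657 FPKM to 3.43, 5.36 and 4.85 FPKM, a log2 change of 1.26 ± 0.32 (adjusted p = 0.003372).

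Between the cultivars in root at normal nitrogen, 1 of 22 members was called at day 1, Solyc02g070950, which was lower in Guozhen, as 0.626% of all genes were. Its libraries held 3.64, 1.62 and 2.12 FPKM in Guizhen and 0.596, 0.385 and 0.752 FPKM in Guozhen, a log2 difference of -1.10 ± 0.27 (SE, with an adjusted p of 0.04809 in limma). The libraries did not overlap, but the call was lost in 5 of the 6 fits that each left out 1 library, and the adjusted p rose to 0.09138 with a pseudocount of 0.1. At day 7 none of the 22 was called, as 0.925% of all genes were, and 1 had an unadjusted p under 0.05.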

How the data were processed

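Levels are FPKM in 1 table of 29898 genes as deposited by the authors. The tools HISAT2 and StringTie are named, per the submitters' processing notes. Their versions, the genome build, the annotation and the strand setting are not given in the sources used here. Groups follow the sample titles. FPKM were transformed to log2(FPKM + 1), which understates the change of low genes, and an exact 0 may be a failed estimate. A gene entered the test if 3 or more libraries reached 1 FPKM. A linear model of the group means, with a variance trend, was then fitted by limma 3.58.1 (R 4.3.3) to the 24 libraries of an organ (48 for leaf against root). Benjamini-Hochberg adjustment of p-values ran over all genes of each of 25 comparisons, and genes with an adjusted p under 0.05 were called. For counts of members at an unadjusted p under 0.05, the share of all genes was not computed. The fit was tested on simulated data. Exact permutation tests of 3 libraries against 3 were not run, as they cannot reach 0.05.

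Values per library are given for the 3 most abundant leaf members. For nitrogen responses, cultivar comparisons and response differences they cover all called members, up to 3 a direction. This holds where the higher mean is at least 5 FPKM. In comparisons between the days they are given for some called members only. Other genes with values were chosen after their values were seen. The members and lists were chosen with earlier results of these data known. Leaf-preferred and root-preferred genes were chosen from these libraries and carry no test. A list of other photosynthesis genes by name was not used, since 0 of 31 members matched an identifier among 41476 reference entries. Alternatives were a pseudocount of 0.1, no filter, median-of-ratios scaling, a replicate block, only the compared libraries, and each library left out. Leaving out libraries for the summed level, and scaling it at day 1, were added after seeing the data. Same-numbered replicates did not deviate together (24 pairs, r from -0.204 to 0.160, 5 over 0.1). Tables and figures were made with Python 3.11.15, pandas 2.3.3 and matplotlib 3.10.9.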

Additional observations from a re-analysis of the deposited data

Results flagged for a closer look

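The root response of Solyc12g011450 to low nitrogen differed between day 1 and day 7 in each cultivar when the difference was tested in limma. The day 7 response minus the day 1 response was -2.24 (log2 scale) in Guizhen root, where the mean under low nitrogen was higher at day 1 and lower at day 7. It was -1.41 in Guozhen root. Leaving out each compared library in turn gave -2.73 to -1.93 in Guizhen and -1.61 to -1.24 in Guozhen, and the call held in 6 of 12 and 2 of 12 such fits. The Guizhen call was also lost with only the compared libraries, and the Guozhen call with no filter. The levels behind it are low, at most 5.36 FPKM in any root library.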

How the results depend on the processing

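Counts of called members in leaf between days, and in leaf against root, stayed at 31 under each alternative. The shares of all genes called under the alternatives are not given here, so these counts only describe how stable the members' calls were. With a pseudocount of 0.1 the count was 0 for the Guozhen leaf day 7 response, 2 for the day difference in Guozhen root and 0 for the cultivars in root at day 1. With no filter on low values it was 0 for the latter pair, and with the replicate block it was 0 for both as well (adjusted p = 0.05444 in limma for Solyc12g011450 in Guozhen root); same-numbered libraries are not paired, and the block moved no other count by over 1.5 times. With only the compared libraries it was 0 for the Guizhen root day 7 response, 0 for the day difference in Guizhen root, 0 for the cultivars in root at day 1 and 7 for day 7 against day 1 in Guozhen root. Median-of-ratios scaling moved none of the 33 main results, but reversed the uncalled changes of Solyc03g005760 in Guizhen leaf at day 7 (-0.17) and Solyc06g063370 in Guozhen leaf at day 7 (-0.11). Under this scaling 2 called changes of single genes were no longer called. Leaving out 1 library at a time gave 0 to 1 called members in the Guizhen and Guozhen leaf responses of day 1, the Guozhen leaf response of day 7, the day difference in Guozhen leaf, and the cultivars in leaf and in root at day 1. It gave 0 to 4 and 1 to 8 for the Guizhen and Guozhen root responses of day 7, 0 to 3 and 0 to 4 for the day difference in Guizhen and Guozhen root, and 2 to 5 and 0 to 3 for day 7 against day 1 in Guizhen and Guozhen root. Uncalled leaf changes that turned sign ranged from -0.083 to 0.12 for Solyc03g005760 in Guizhen at day 7 and from -0.0202 to 0.11 for Solyc06g063370 in Guozhen at day 7. In Guozhen at day 1 they ranged from -0.69 to 0.32 for Solyc03g005760, from -0.85 to 0.28 for Solyc06g063370 and from -0.65 to 0.33 for Solyc10g006230. The cause of these shifts was not tested. Read depth is unknown, so what it limits could not be computed.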
